A study of Mus musculus with 32 samples.

Results

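The genes described here encode collagen chains and the enzymes and chaperone that fold, trim and crosslink them. They were chosen by name, and 40 genes made up the list, out of 21073 genes that could be tested in the liver arrays. Collagens are secreted as procollagens of 3 chains wound around each other. In the cell, prolyl and lysyl hydroxylases modify the chains and the chaperone Hsp47, encoded by Serpinh1, holds the helix. Outside it, proteases remove the propeptides and lysyl oxidases crosslink the fibrils. In the liver, hepatic stellate cells and portal fibroblasts make most of the fibrillar collagen, and scarring in steatohepatitis is largely an accumulation of types I and III.

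The samples were livers of male C57/BL6 mice, aged 8 weeks at the start, in 8 groups of 4 liver samples, with 1 array for each sample. Mice were fed a chow diet (C) or a diet deficient in methionine and choline (MCD), which causes steatohepatitis, for 3 weeks. A part of each diet group received Fc-GLP-1, a long-acting agonist of the GLP-1 receptor, for the last 2 weeks (C+Fc-GLP-1 on chow, M+Fc-GLP-1 on the MCD diet), and the untreated mice received saline. Liver was taken at a partial hepatectomy (PH) that removed 70% of the organ and again 2 weeks later. Diet and treatment went on in those 2 weeks, and every sample after PH came from a survivor. Fc-GLP-1 was dosed at 10 nmol/kg. Some of the labels instead describe an agonist of both the GLP-1 and the glucagon receptor at 4.4 mg/kg/day, so which drug was given is not settled by them, and the name Fc-GLP-1 is used throughout. Whether a mouse gave a sample at both times is not stated in the labels, and the arrays were treated as separate mice.

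On each array, 36.2% to 69.1% of the probes gave a signal well above background. The 32 arrays lay on 5 slides, and 3 comparisons stayed within a slide: MCD against C before PH, M+Fc-GLP-1 against C+Fc-GLP-1 before PH, and M+Fc-GLP-1 against C+Fc-GLP-1 after PH. In every other comparison of groups, slide and group cannot be told apart. The C and MCD groups after PH were each on a slide of their own, read with a different scanner from the rest, and the 10 spike-in controls had another pattern there (correlation with the mean pattern before PH from -0.168 to -0.134, against at least 0.989 on all other arrays). Hepatocyte markers were among the brightest genes on all arrays, with a summed signal of 2221 to 6525 times the array's 75th percentile. The arrays measured RNA of the whole tissue, in which fewer cells of a type and less RNA per cell cannot be told apart.

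Of the 40 genes, 31 were detected (well above background) on every array of some group and were tested. Col4a3, Col5a2, Col8a1, Col8a2, Col10a1, Col11a1, Col15a1, Lox and Plod2 were not. Among these, Col10a1, the network collagen of growth cartilage, was detected on 0 of 32 arrays, and Col8a1, a network collagen of vessel walls, on 1. Plod2, the lysyl hydroxylase of the telopeptides, was detected on 13 arrays, Col8a2 on 11, Col15a1 on 9, Col5a2 on 7, Lox on 5, and Col4a3 and Col11a1 on 2 each. The number of the 40 genes detected on all 4 arrays was 28 in C mice, 29 each in C+Fc-GLP-1 and MCD mice, and 22 in M+Fc-GLP-1 mice before PH. After PH it was 28 in C, 30 in C+Fc-GLP-1, 28 in MCD and 30 in M+Fc-GLP-1 mice. Before PH, M+Fc-GLP-1 replicate 2 had the lowest share of all probes well above background of any array, at 36.2%. In that group Col4a4, Col6a2, Loxl1, P4ha1 and P4ha3 were each detected on 3 of 4 arrays. Col12a1 passed the filter through C+Fc-GLP-1 mice after PH alone, and Col13a1 through M+Fc-GLP-1 mice after PH alone.

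**Figure D1:**
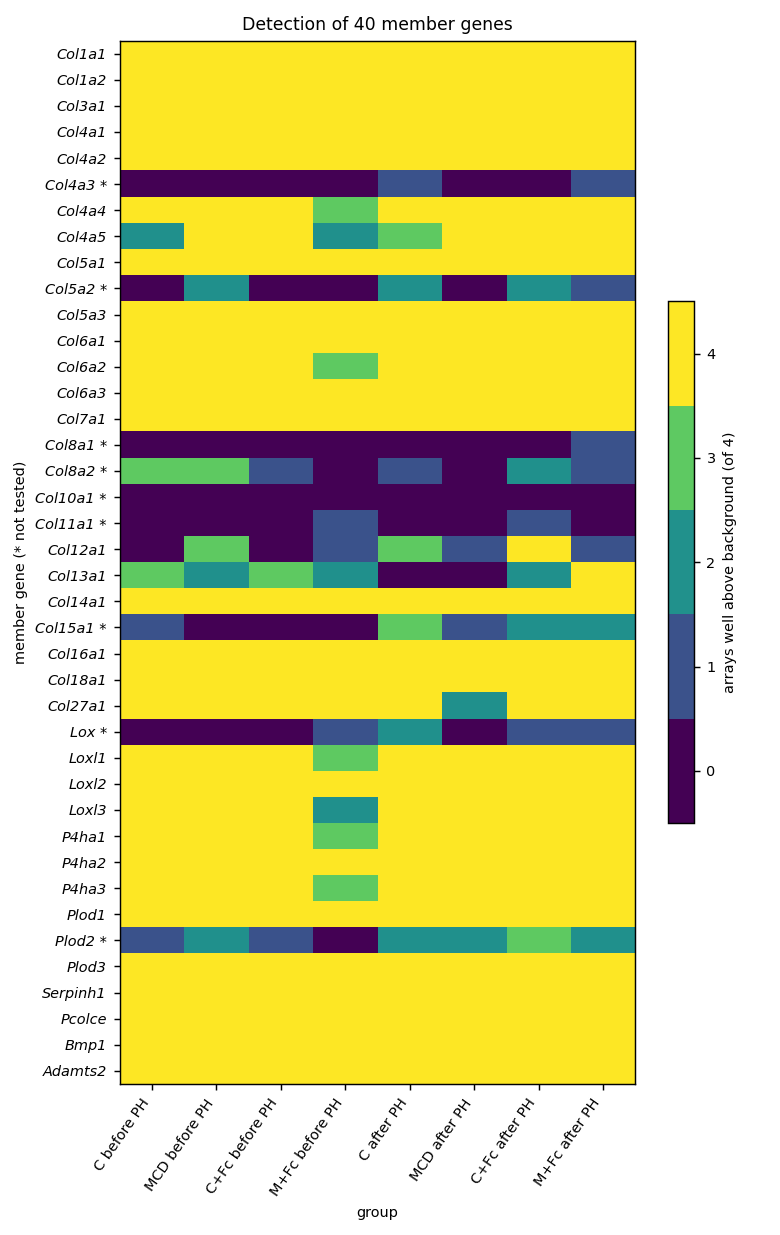
Number of arrays of 4 on which each of the 40 genes was well above background, by group (columns) and gene (rows, ordered by role); an asterisk marks the 9 genes that were not tested. Most chains and enzymes were detected on all 4 arrays of each group, while Col10a1 was detected on 0 arrays.

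Promoter sequences are shown for a pair of fibrillar chains, the collagen chaperone and a hydroxylase that were called in at least 1 comparison, since their makeup differs. The 250 bases before the start are given 5′ to 3′ on the strand of the gene, from RefSeq on GRCm38.p6, for Col1a2 (chr6:4505368-4505617, forward strand), Col3a1 (chr1:45311288-45311537, forward), Serpinh1 (chr7:99353240-99353489, reverse) and Plod3 (chr5:136986769-136987018, forward). Capitals mark the TATA box as TATAAA, the CCAAT box by these 5 letters, the GC box as GGGCGG and a Smad binding element as CAGACA, searched on both strands, and the letters searched do not overlap each other in these windows.
Col1a2: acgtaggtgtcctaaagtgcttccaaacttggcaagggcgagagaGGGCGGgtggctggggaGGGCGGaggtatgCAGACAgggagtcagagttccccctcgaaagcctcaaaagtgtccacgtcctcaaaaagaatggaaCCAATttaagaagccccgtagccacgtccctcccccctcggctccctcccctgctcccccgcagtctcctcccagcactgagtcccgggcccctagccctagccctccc
Col3a1: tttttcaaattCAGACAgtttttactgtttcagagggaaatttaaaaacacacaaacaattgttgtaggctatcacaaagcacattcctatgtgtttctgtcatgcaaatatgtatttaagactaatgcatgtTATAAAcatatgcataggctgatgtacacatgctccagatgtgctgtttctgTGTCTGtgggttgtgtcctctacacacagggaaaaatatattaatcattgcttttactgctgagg
Serpinh1: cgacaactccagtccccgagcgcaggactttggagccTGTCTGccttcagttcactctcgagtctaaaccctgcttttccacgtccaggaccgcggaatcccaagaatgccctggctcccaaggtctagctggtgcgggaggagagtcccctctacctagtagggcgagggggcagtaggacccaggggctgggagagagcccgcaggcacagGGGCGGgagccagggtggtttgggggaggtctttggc
Plod3: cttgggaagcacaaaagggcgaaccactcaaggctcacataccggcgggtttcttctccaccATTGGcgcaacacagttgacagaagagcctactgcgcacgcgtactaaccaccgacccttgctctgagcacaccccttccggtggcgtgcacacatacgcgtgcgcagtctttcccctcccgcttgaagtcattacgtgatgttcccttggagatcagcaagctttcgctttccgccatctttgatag
Col3a1 had a TATA box (from -117 relative to the start), no GC box, and a GC content of 35.2%. Col1a2 had a pair of GC boxes, a CCAAT box (from -109) and a GC content of 62%. The windows of Serpinh1 and Plod3 had a GC content of 63.6% and 55.6%, and the median of all 32851 windows was 52.4%. Promoters of 29 of the 40 genes were matched. The GC box was found in 20 of them (69.0%) and in 32.7% of all promoters, the CCAAT box in 10 (34.5%, all 33.8%), the Smad element in 7 (24.1%, all 17.1%) and the TATA box in 4 (13.8%, all 12.4%). These are matches of letters and no measure of binding. Of other genes the results turn on, RefSeq on GRCm38.p6 places Col1a1 at chr11:94936224-94953042, Col5a3 at chr9:20770050-20815117 and Col27a1 at chr4:63214009-63334991. Col4a1 and Col4a2 lie head to head on chromosome 8 and overlap at their starts, with first bases at 11312826 and 11312805. The full span given for Col4a1 reaches 11312889.

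A gene is called when its limma adjusted p, over all tested genes, was under 0.05, and values are log2 of the signal relative to the 75th percentile of the array. Before PH, type I chains and Col6a3 were higher in MCD than C livers, and the minor fibrillar chains Col27a1 and Col5a3 were lower. In MCD against C mice before PH, 13 of the 31 genes were called (26.4% of all genes), 8 higher and 5 lower, with a median difference of 0.23 over the 31 and -0.13 over all genes. The split was 10 and 3 with arrays centred on the median, which set the median of all genes to 0.24, and 3 and 4 with another background correction (normexp) followed by quantile normalization. Col12a1, Col1a1, Col6a3, Adamts2, Col1a2, Loxl2, Pcolce and Col4a1 were higher. Col27a1, Col5a3, P4ha3, Plod3 and Col4a4 were lower. The count was 8 without C replicate 2, 8 without MCD replicate 1, 7 without MCD replicate 2 and 8 without MCD replicate 4.

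Under Fc-GLP-1, every gene called between the diets was lower on the MCD diet. In M+Fc-GLP-1 against C+Fc-GLP-1 mice before PH, 5 genes were called (10.4% of all genes), all lower: Col27a1, Col5a3, P4ha1, Col3a1 and Serpinh1. Their median over the 31 was -0.31, against 0.04 over all genes. Col1a1 and Col1a2 differed by -0.63 (adjusted p = 0.571) and -0.37 (adjusted p = 0.633). Without C+Fc-GLP-1 replicate 1, M+Fc-GLP-1 replicate 2 or M+Fc-GLP-1 replicate 3, 3 genes were called each time. After PH, 6 genes were called between these diets under Fc-GLP-1 (12.8% of all genes), all lower in M+Fc-GLP-1 mice: Col27a1, P4ha1, Col5a3, Col14a1, Serpinh1 and Pcolce. The median was -0.48 over the 31 and -0.01 over all genes. With the table of normalized values that the authors deposited the split was 1 higher and 5 lower. In untreated mice after PH, MCD against C called 6 genes (12.1% of all genes), all lower: Col27a1, Col3a1, Serpinh1, Col5a3, Col1a2 and Col14a1 (median -0.58, all genes -0.03).

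Between mice with and without Fc-GLP-1 on the same diet, 0 to 2 of the 31 genes were called. In the same comparisons 2.06% to 7.22% of all genes were called, so these low counts are no trait of the collagen genes. In chow-fed mice, 0 were called before PH (2.11% of all genes) and 0 after PH (2.06%), with limma, and 2 and 1 had an unadjusted p under 0.05. The medians were 0.15 and 0.19, against -0.04 and 0.04 over all genes. Before PH, normexp with quantile normalization and the deposited values each called 4 genes there, 1 higher and 3 lower, and centring on the median called 1. In MCD-fed mice before PH, Col3a1 was called lower with Fc-GLP-1 (7.22% of all genes were called), the median was -0.51 (all genes 0.10), and 13 genes had an unadjusted p under 0.05. The count there was 2 without MCD replicate 3, 4 without M+Fc-GLP-1 replicate 2 and 2 without M+Fc-GLP-1 replicate 4. It was 3 with normexp and quantile normalization, 1 of them higher, and 10 with the deposited values, 1 of them higher. In MCD-fed mice after PH, Col27a1 and Col13a1 were called higher with Fc-GLP-1 (6.5% of all genes; median 0.29, all genes 0.05). Col13a1 was tested only because it was detected in the treated group of this comparison, so its call is a description and supports nothing. Without M+Fc-GLP-1 replicate 3, 5 genes were called.

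From before to 2 weeks after PH, 9 genes were called in C mice (14% of all genes): Col1a1, Col3a1, Col1a2, Loxl2, Col4a1 and Pcolce were higher, and Col27a1, Col13a1 and Col7a1 were lower. The median was 0.64 over the 31 and -0.08 over all genes. The split was 7 and 1 with arrays centred on the median, and 10 and 1 with the 75th percentile taken over probes detected on every array. In MCD mice 4 genes were called (9.43% of all genes), Col4a1 higher and Col27a1, Col13a1 and Serpinh1 lower, with a median of -0.33 (all genes -0.03). There the split was 0 and 3 with centring on the median, and 2 and 1 with normexp and quantile normalization. With Fc-GLP-1 on chow, Col3a1 was called higher (0.835% of all genes; median 0.64, all genes 0.00). On the MCD diet with Fc-GLP-1, Col3a1, Col4a2 and Col4a1 were called higher (1.71% of all genes; median 0.13, all genes -0.03), and normexp with quantile normalization gave 2 higher and 1 lower. With only the groups compared in the fit, 4 genes were called in C mice across PH and 0 in treated mice of either diet, and the calls lost in C mice were Col1a1, Col4a1, Loxl2, Col7a1 and Col13a1. The count in MCD mice was 2 without MCD before PH replicate 2, 1 without replicate 3, 2 without replicate 4, 1 without MCD after PH replicate 2, 1 without replicate 3 and 2 without replicate 4. The call in C+Fc-GLP-1 mice was lost, leaving 0, without any of the 4 arrays before PH and without replicate 1 or 3 after PH.

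Whether an effect itself differed between groups was tested with interaction terms. The effect of Fc-GLP-1 before PH differed between the diets for Col3a1 alone among the 31 genes (6.15% of all genes). The median of this interaction was -0.59 over the 31 and 0.15 over all genes, and centring on the median, which moved the latter to -0.47, called 7 genes, all negative. The count was 0 without C before PH replicate 1, 2 without C before PH replicate 3 and 2 without M+Fc-GLP-1 before PH replicate 1. The change across PH differed between the diets in untreated mice for Col1a1, Col1a2 and Col3a1 (2.85% of all genes; median -0.79, all genes 0.07), a comparison chosen after seeing the data. Normexp with quantile normalization split it into 1 positive and 2 negative, and 5 genes were called without C after PH replicate 3. Under Fc-GLP-1, 0 genes were called for the same difference (0.0949% of all genes) and 5 had an unadjusted p under 0.05 with limma, at a median of -0.12 (all genes -0.03).

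**Figure D2:**
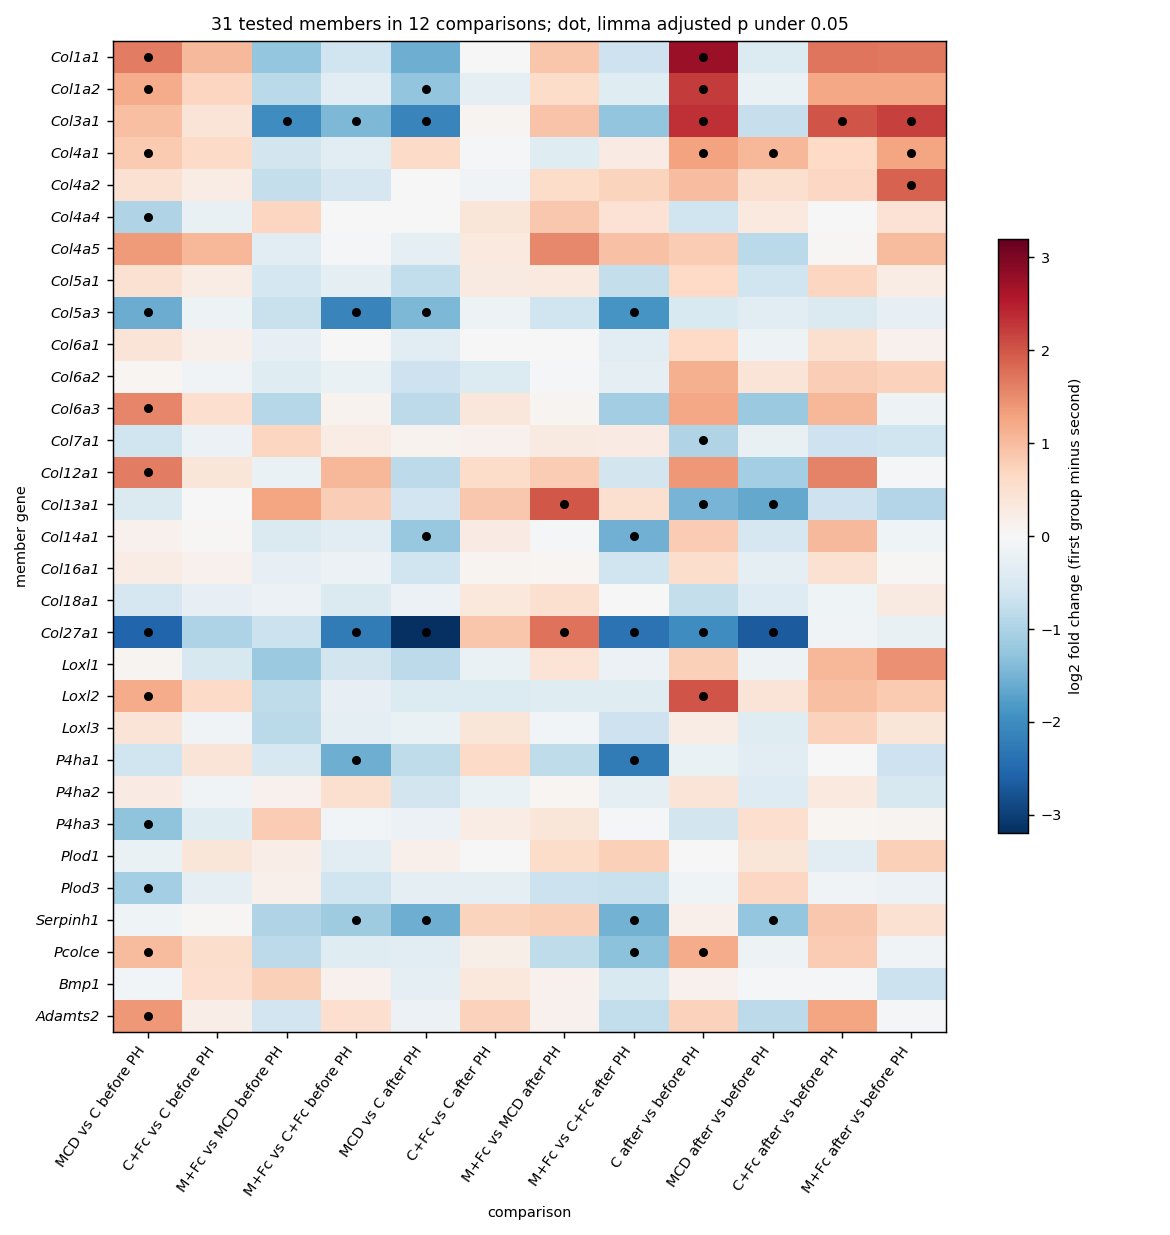
Log2 fold change of the 31 tested genes (rows, ordered by role) in the 12 comparisons of groups (columns), on a colour scale centred on 0; dots mark genes called by limma at an adjusted p under 0.05. The Col1a1 and Col1a2 rows are higher in MCD than C mice before PH, at 1.64 and 1.19, and lower after PH, at -1.57 and -1.27 (Col1a1 not called after PH), and the Col27a1 and Col5a3 rows are lower in all 4 comparisons of the diets.

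Col1a1 and Col1a2 encode the chains of type I collagen, the main fibril of scar. Before PH, Col1a1 measured -1.44, -0.29, -0.12 and -1.12 in C, -0.16, 0.42, 0.33 and 0.59 in C+Fc-GLP-1, 0.65, 0.88, 1.17 and 0.89 in MCD and -0.29, -0.15, 0.36 and -1.26 in M+Fc-GLP-1 mice. All 4 MCD mice were above all C mice, at a log2 difference of 1.64 (standard error 0.62, adjusted p = 0.0485). After PH, Col1a1 measured 4.39, 1.35, 0.52 and 1.85 in C, 3.67, 1.95, 1.27 and 1.13 in C+Fc-GLP-1, 0.71, 0.82, 0.57 and -0.26 in MCD and 1.33, 1.50, -0.26 and 2.84 in M+Fc-GLP-1 mice. The C and C+Fc-GLP-1 groups each held 1 mouse far above its other 3, and in C mice the rise across PH was 2.77 (standard error 0.62, adjusted p = 0.00365), with no overlap. MCD mice showed -0.44 across PH (adjusted p = 0.724), so that after PH they lay at -1.57 against C mice (adjusted p = 0.097). The call before PH held in 1 of 8 fits with 1 array left out (lost without C replicates 1, 2 and 4 and MCD replicates 1, 2, 3 and 4, adjusted p up to 0.133).

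Col1a2, the second chain of the type I helix, moved with Col1a1. Before PH, its values were 1.79, 1.90, 1.91 and 2.36 in C, 2.36, 2.45, 3.14 and 2.78 in C+Fc-GLP-1, 3.097, 3.29, 3.07 and 3.27 in MCD and 2.64, 2.32, 2.42 and 1.88 in M+Fc-GLP-1 mice. Again all MCD mice were above all C mice, by 1.19 (standard error 0.41, adjusted p = 0.0334). After PH, the arrays gave 5.79, 3.69, 3.28 and 4.17 in C, 5.27, 3.42, 3.57 and 3.46 in C+Fc-GLP-1, 2.91, 3.11, 3.13 and 2.71 in MCD and 3.61, 3.41, 2.61 and 4.58 in M+Fc-GLP-1 mice. In C mice Col1a2 rose across PH by 2.25 (standard error 0.41, adjusted p = 8.82e-04), and after PH it was lower in MCD mice, at -1.27 (standard error 0.41, adjusted p = 0.0424), with no overlap in either comparison. The diet difference before PH held in 1 of 8 fits with 1 array left out (lost without C replicates 1, 2 and 3 and MCD replicates 1, 2, 3 and 4, adjusted p up to 0.0763), and that after PH held in 2 of 8 fits with 1 array left out (lost without C replicates 1 and 4 and MCD replicates 1, 2, 3 and 4, adjusted p up to 0.192).

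Col3a1 encodes type III collagen, which forms fine fibrils with type I. Before PH, it measured 1.29, 1.73, 1.61 and 1.76 in C, 2.19, 1.53, 2.09 and 2.26 in C+Fc-GLP-1, 2.32, 2.57, 2.71 and 2.66 in MCD and 1.11, 0.50, 0.20 and 0.47 in M+Fc-GLP-1 mice. MCD mice lay above C mice without overlap, but the difference of 0.97 was not called (adjusted p = 0.113). M+Fc-GLP-1 mice were below all mice of the other groups before PH, with differences of -1.99 (standard error 0.45, adjusted p = 0.00908) against MCD and -1.45 (standard error 0.45, adjusted p = 0.0378) against C+Fc-GLP-1. The test of whether this drug effect differed between the diets gave -2.41 (standard error 0.64, adjusted p = 0.0266), a term in which a constant difference between slides cancels. That term held in 15 of 16 fits with 1 array left out (lost without C before PH replicate 1, adjusted p up to 0.0515), and it was not called with normexp and quantile normalization. The diet difference under Fc-GLP-1 held in 2 of 8 fits with 1 array left out (lost without C+Fc-GLP-1 replicates 1, 3 and 4 and M+Fc-GLP-1 replicates 2, 3 and 4, adjusted p up to 0.0994).

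After PH, Col3a1 measured 5.27, 3.29, 3.30 and 3.89 in C, 5.46, 3.86, 3.48 and 3.28 in C+Fc-GLP-1, 2.26, 1.82, 1.76 and 1.49 in MCD and 2.70, 2.28, 1.66 and 4.39 in M+Fc-GLP-1 mice. Across PH it rose by 2.34 (standard error 0.45, adjusted p = 0.00127) in the C group, 2.00 (standard error 0.45, adjusted p = 0.0346) in treated chow-fed mice and 2.19 (standard error 0.45, adjusted p = 0.00905) in treated MCD-fed mice. In MCD mice the difference was -0.73 (adjusted p = 0.341), and after PH their difference from C mice was -2.11 (standard error 0.45, adjusted p = 0.00247). In untreated mice the interaction of diet and time was -3.07 (standard error 0.64, adjusted p = 0.0118) for Col3a1, -2.46 (standard error 0.59, adjusted p = 0.0219) for Col1a2 and -3.21 (standard error 0.87, adjusted p = 0.0417) for Col1a1. The last of these held in 4 of 16 fits with 1 array left out (lost without C before PH replicates 1 and 4, MCD before PH replicates 1, 2, 3 and 4, C after PH replicates 1 and 4 and MCD after PH replicates 1, 2, 3 and 4, adjusted p up to 0.0895), and a difference between the slides of the C and MCD arrays after PH does not cancel in this term.

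**Figure D3:**
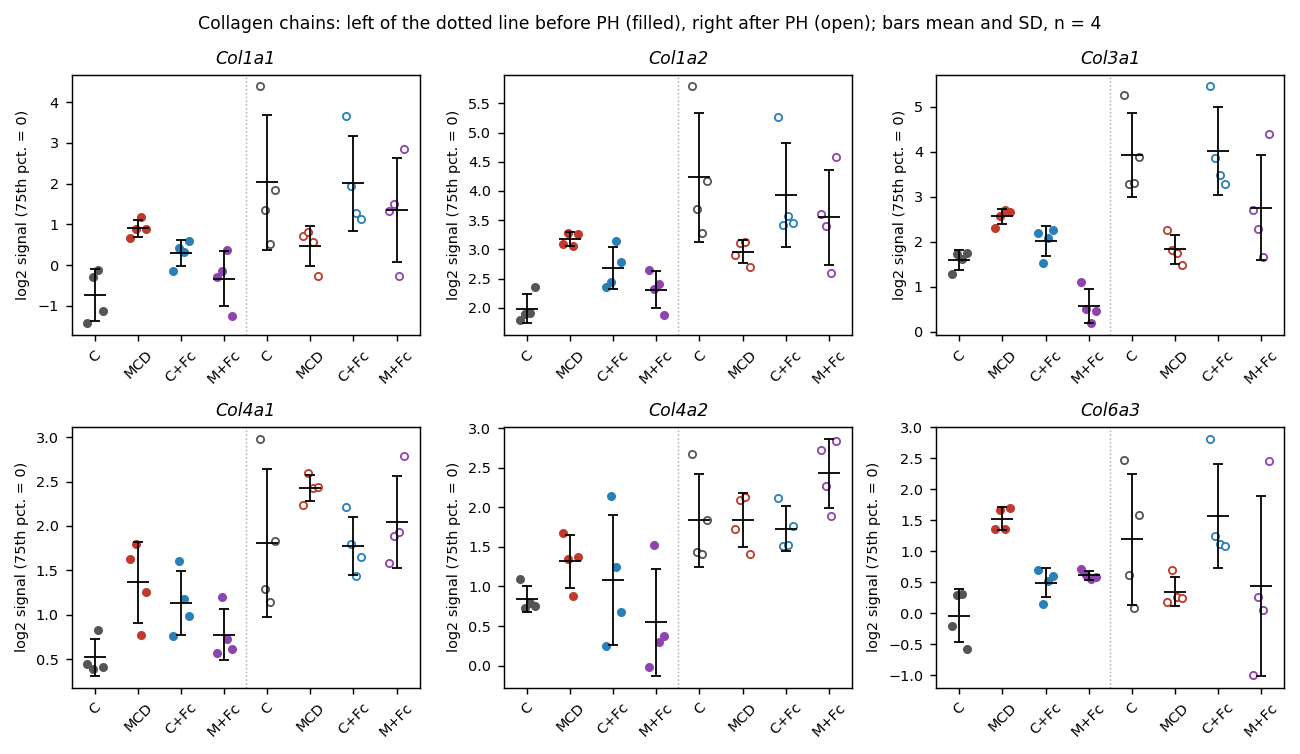
Log2 signal relative to the 75th percentile of the array for Col1a1, Col1a2, Col3a1, Col4a1, Col4a2 and Col6a3 in each of the 8 groups before and after PH; points are arrays and bars the mean with the SD of 4. Col1a1, Col1a2 and Col3a1 are high after PH in 1 mouse of each group other than MCD.

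A high array stood out in 3 groups after PH: C replicate 1, C+Fc-GLP-1 replicate 1 and M+Fc-GLP-1 replicate 4 had the highest Col1a1, Col1a2 and Col3a1 of their groups. The same arrays had the highest summed signal of 5 cholangiocyte (bile duct cell) markers, at 51.8, 70.6 and 61.3 times the array's 75th percentile, where the other 13 arrays after PH had 2.38 to 14.5 and the arrays before PH 4.22 to 11.3. Most of that sum was Spp1, a secreted protein that other cells make too, at log2 levels of 5.49, 5.998 and 5.51. Krt7, a keratin of bile ducts, had -0.05, 0.26 and 1.41 on them and at most -1.44 on the other arrays after PH. Portal fibroblast markers were high on all 3 as well, and other cell markers on some of them only. Summed portal fibroblast signal was 16.8, 15.4 and 25.7, against at most 8.69, 9.76 and 10.4 on the other arrays of each group. Summed macrophage signal was 429 in C replicate 1, summed stellate cell signal 79.1 in C+Fc-GLP-1 replicate 1 and summed mesothelial signal 16.4 in M+Fc-GLP-1 replicate 4, against at most 198, 49.7 and 3.51 in the rest of those groups. The part of these cells in the collagen values was not tested. Without these 3 arrays, which were singled out after seeing the data, 8 genes were called between C mice after and before PH, and the call lost was Col13a1. The 6 calls of MCD against C after PH became 7, the 2 of M+Fc-GLP-1 against MCD after PH became 3, and the 6 of M+Fc-GLP-1 against C+Fc-GLP-1 after PH became 8. The single call in C+Fc-GLP-1 mice and the 3 in M+Fc-GLP-1 mice across PH numbered 1 and 3, and the interaction in untreated mice called 4 genes. None of the 5 cholangiocyte markers was called in 13 of the 15 comparisons. The exceptions were M+Fc-GLP-1 against MCD after PH (1 higher) and MCD after against before PH (1 lower), where 6.5% and 9.43% of all genes were called.

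**Figure D4:**
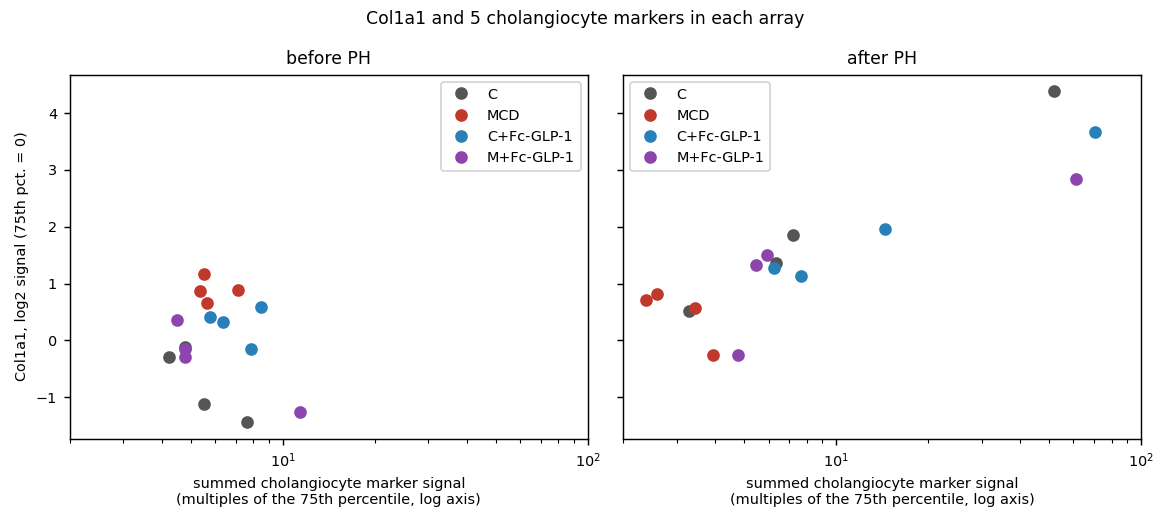
Col1a1 (log2 relative to the array's 75th percentile, vertical axis) against the summed signal of 5 cholangiocyte markers, mostly Spp1 (multiples of that percentile, horizontal log axis) on each array, before PH (left) and after PH (right), coloured by group. After PH 3 arrays, from 3 groups, lie far to the right at 51.8, 61.3 and 70.6, with the highest Col1a1 of their groups.

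The minor fibrillar chains Col5a3 and Col27a1 were lower in MCD than C mice before PH, where the type I chains were higher. In the other comparisons of the diets the direction was shared: Col3a1 was also called lower under Fc-GLP-1 before PH, and Col1a2 and Col3a1 in untreated mice after PH. Col27a1 had the largest difference between the diets of the 31 genes in MCD against C both before and after PH. Before PH, its values were 0.99, 1.72, 0.94 and 1.10 in C, -0.10, 0.25, 0.73 and -0.08 in C+Fc-GLP-1, -1.59, -1.06, -1.33 and -1.41 in MCD and -2.50, -2.35, -1.005 and -2.28 in M+Fc-GLP-1 mice. The diet difference was -2.54 (standard error 0.36, adjusted p = 9.29e-06) in untreated and -2.23 (standard error 0.36, adjusted p = 9.44e-05) in treated mice, without overlap. After PH, Col27a1 measured -2.02, -0.39, 0.28 and -1.05 in C, -0.24, 0.20, 0.44 and -0.06 in C+Fc-GLP-1, -4.56, -4.19, -3.62 and -3.62 in MCD and -2.07, -2.39, -2.64 and -1.98 in M+Fc-GLP-1 mice. It was again lower on the MCD diet, with differences of -3.20 (standard error 0.36, adjusted p = 5.93e-07) in untreated and -2.35 (standard error 0.36, adjusted p = 3.90e-05) in treated mice. These 4 calls were kept when any 1 array was left out.

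Across PH, Col27a1 fell in untreated mice of both diets, with differences of -1.99 (standard error 0.36, adjusted p = 7.10e-04) in C and -2.65 (standard error 0.36, adjusted p = 3.30e-05) in MCD mice. Under Fc-GLP-1 the differences were -0.12 (adjusted p = 0.914) and -0.24 (adjusted p = 0.795). The C and MCD arrays after PH were read with a different scanner from the rest. In the untreated falls, scanner and time cannot be told apart. The probe was well above background on 2 of the 4 arrays of MCD mice after PH and on all arrays of the other groups. M+Fc-GLP-1 mice had more than MCD mice after PH, by 1.73 (standard error 0.36, adjusted p = 0.00411), a call lost with normexp and quantile normalization and with the deposited values.

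Col5a3, a minor chain of type V collagen, measured 4.08, 4.26, 4.16 and 3.90 in C, 3.90, 3.75, 3.55 and 4.50 in C+Fc-GLP-1, 2.75, 2.61, 2.26 and 2.47 in MCD and 1.50, 2.26, 1.99 and 1.52 in M+Fc-GLP-1 mice before PH. On the MCD diet it was lower, with differences of -1.58 (standard error 0.34, adjusted p = 0.00106) without and -2.11 (standard error 0.34, adjusted p = 9.05e-05) with Fc-GLP-1. After PH, the values were 2.74, 3.83, 4.01 and 3.90 in C, 3.21, 3.88, 3.42 and 3.34 in C+Fc-GLP-1, 2.69, 1.99, 1.96 and 2.13 in MCD and 1.71, 1.25, 2.81 and 0.49 in M+Fc-GLP-1 mice. The diet differences were then -1.43 (standard error 0.34, adjusted p = 0.0053) without and -1.90 (standard error 0.34, adjusted p = 2.47e-04) with Fc-GLP-1, and none of these 4 pairs of groups overlapped. All of these calls held with any 1 array left out. Col5a1, the major chain of type V, ranged from -1.003 to 1.18 over the 32 arrays and was called in no comparison.

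Type IV chains form the sheet of basement membranes, with Col4a1 and Col4a2 in all tissues. Before PH, Col4a1 measured 0.45, 0.39, 0.83 and 0.41 in C, 0.76, 1.60, 1.17 and 0.99 in C+Fc-GLP-1, 1.63, 1.80, 0.77 and 1.26 in MCD and 0.56, 1.20, 0.72 and 0.61 in M+Fc-GLP-1 mice. It was higher in MCD than C mice by 0.85 (standard error 0.31, adjusted p = 0.043), although C replicate 3 lay within the MCD range. After PH, it measured 2.98, 1.29, 1.15 and 1.83 in C, 2.22, 1.80, 1.43 and 1.65 in C+Fc-GLP-1, 2.24, 2.60, 2.43 and 2.44 in MCD and 1.58, 1.89, 1.93 and 2.78 in M+Fc-GLP-1 mice. It rose across PH by 1.29 (standard error 0.31, adjusted p = 0.00639) in C, 1.06 (standard error 0.31, adjusted p = 0.0288) in MCD and 1.27 (standard error 0.31, adjusted p = 0.03) in M+Fc-GLP-1 mice, without overlap, and in treated chow-fed mice the difference was 0.64 (adjusted p = 0.321). The diet call before PH held in 2 of 8 fits with 1 array left out (lost without C replicates 1, 2 and 4 and MCD replicates 1, 2 and 4, adjusted p up to 0.13). Across PH the call in MCD mice held in 3 of 8 fits with 1 array left out (lost without MCD before PH replicates 3 and 4 and MCD after PH replicates 2, 3 and 4, adjusted p up to 0.121), and that in M+Fc-GLP-1 mice held in 2 of 8 fits with 1 array left out (lost without M+Fc-GLP-1 before PH replicates 1, 3 and 4 and M+Fc-GLP-1 after PH replicates 2, 3 and 4, adjusted p up to 0.117).

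Col4a2, the partner chain, measured 1.09, 0.72, 0.79 and 0.76 in C, 0.24, 2.15, 1.24 and 0.68 in C+Fc-GLP-1, 1.67, 1.35, 0.87 and 1.37 in MCD and -0.02, 1.52, 0.30 and 0.38 in M+Fc-GLP-1 mice before PH. After PH its values were 2.67, 1.44, 1.41 and 1.85 in C, 2.12, 1.51, 1.52 and 1.77 in C+Fc-GLP-1, 1.72, 2.09, 2.13 and 1.41 in MCD and 2.73, 2.28, 1.89 and 2.84 in M+Fc-GLP-1 mice. It was called only in M+Fc-GLP-1 mice across PH, where it rose by 1.89 (standard error 0.35, adjusted p = 0.00301) and held in all 8 fits with 1 array left out (adjusted p up to 0.0177). That call was lost with only the groups compared in the fit (adjusted p = 0.061). Col4a4, a chain of the kidney type of network, was dim. Its values before PH were -2.27, -1.69, -2.05 and -2.32 in C, -1.60, -2.74, -2.21 and -2.74 in C+Fc-GLP-1, -3.46, -3.08, -2.87 and -2.73 in MCD and -2.60, -2.39, -1.76 and -2.60 in M+Fc-GLP-1 mice. The difference of MCD from C mice was -0.95 (standard error 0.29, adjusted p = 0.0167), without overlap, and -0.35 with another probe of the gene. The call held in 6 of 8 fits with 1 array left out (lost without C replicate 2 and MCD replicate 1, adjusted p up to 0.063). After PH, Col4a4 measured -2.89, -2.09, -3.33 and -2.57 in C, -2.15, -2.61, -2.38 and -2.20 in C+Fc-GLP-1, -2.93, -2.82, -2.64 and -2.54 in MCD and -1.69, -1.93, -2.64 and -1.20 in M+Fc-GLP-1 mice, and no other comparison called it. Col4a5 was detected on 27 arrays and called in no comparison.

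Type VI collagen forms beaded microfilaments around cells. Its longest chain, Col6a3, measured -0.21, 0.29, 0.32 and -0.58 in C, 0.70, 0.15, 0.52 and 0.60 in C+Fc-GLP-1, 1.36, 1.67, 1.36 and 1.70 in MCD and 0.71, 0.61, 0.54 and 0.58 in M+Fc-GLP-1 mice before PH. MCD mice exceeded C mice by 1.57 (standard error 0.49, adjusted p = 0.0179), without overlap. After PH, Col6a3 measured 2.46, 0.62, 0.08 and 1.59 in C, 2.81, 1.24, 1.11 and 1.08 in C+Fc-GLP-1, 0.18, 0.69, 0.26 and 0.25 in MCD and -0.996, 0.25, 0.05 and 2.46 in M+Fc-GLP-1 mice. C+Fc-GLP-1 replicate 1 stood far above the other mice of its group, and no comparison across PH called the gene. The diet call held in 7 of 8 fits with 1 array left out (lost without C replicate 4, adjusted p up to 0.0561). Col6a1 ranged from 1.01 to 2.91 and Col6a2 from -2.88 to -0.17 over the arrays, and neither was called in any comparison.

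Among the chains that decorate fibrils, Col14a1 was lower on the MCD diet after PH. Before PH, it measured 1.58, 2.27, 2.06 and 2.09 in C, 2.42, 1.70, 1.50 and 2.57 in C+Fc-GLP-1, 2.08, 1.07, 2.61 and 2.78 in MCD and 1.80, 1.28, 1.58 and 2.04 in M+Fc-GLP-1 mice. After PH, it measured 2.93, 2.42, 2.66 and 3.23 in C, 3.11, 2.76, 3.35 and 3.09 in C+Fc-GLP-1, 2.08, 2.02, 1.07 and 1.19 in MCD and 0.79, 1.64, 1.78 and 1.94 in M+Fc-GLP-1 mice. The diet differences were then -1.22 (standard error 0.33, adjusted p = 0.0145) without and -1.54 (standard error 0.33, adjusted p = 0.00192) with Fc-GLP-1. The groups did not overlap, and the gene's other probe gave -0.41 and -0.81. Before PH the differences were 0.13 (adjusted p = 0.797) and -0.37 (adjusted p = 0.523). Whether the diet difference under Fc-GLP-1 changed across PH was tested and not called (-1.17, adjusted p = 0.413), nor was it in untreated mice (-1.35, adjusted p = 0.103). The call in untreated mice held in 6 of 8 fits with 1 array left out (lost without C replicate 4 and MCD replicate 3, adjusted p up to 0.0577). Col12a1, a second chain of this kind, was near background, with values before PH of -6.01, -4.33, -5.58 and -4.62 in C, -3.67, -5.59, -4.50 and -5.23 in C+Fc-GLP-1, -3.58, -2.88, -3.98 and -3.53 in MCD and -4.68, -3.86, -2.04 and -4.20 in M+Fc-GLP-1 mice. It was well above background on 3 MCD and 0 C arrays, and was at least 2.22-fold higher in MCD mice (adjusted p = 0.019), a call that held in 5 of 8 fits with 1 array left out (lost without C replicates 1 and 3 and MCD replicate 2, adjusted p up to 0.0781). After PH, its values were -3.17, -3.77, -4.74 and -3.28 in C, -3.60, -3.05, -3.68 and -2.30 in C+Fc-GLP-1, -4.91, -4.53, -5.35 and -3.50 in MCD and -3.73, -4.22, -4.19 and -2.88 in M+Fc-GLP-1 mice, and no other comparison called it. Col16a1, the remaining member, ranged from 0.20 to 2.20 and was called in no comparison.

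Col13a1, a transmembrane collagen of cell contacts, was detected on 16 arrays. It had bounds rather than levels in C and MCD mice after PH, where it was well above background on 0 arrays. Those were the groups read with a different scanner from the rest. Col13a1 was at least 2.20-fold higher in M+Fc-GLP-1 than MCD mice after PH (adjusted p = 0.0118), a call lost with normexp and quantile normalization and with the deposited values. It passed the filter through that M+Fc-GLP-1 group alone, so the difference is given as a description. Across PH it was at least 2.78-fold lower in C mice (adjusted p = 0.0343), where the groups overlapped, and at least 1.75-fold lower in MCD mice (adjusted p = 0.0257). The first of these time differences held in 2 of 8 fits with 1 array left out (lost without C before PH replicates 1, 2 and 3 and C after PH replicates 1, 2 and 4, adjusted p up to 0.139), and the second held in 3 of 8 fits with 1 array left out (lost without MCD before PH replicates 2, 3 and 4 and MCD after PH replicates 2 and 3, adjusted p up to 0.0899). Col7a1, the collagen of anchoring fibrils, was lower in C mice after PH, at -0.97 (standard error 0.32, adjusted p = 0.0405), a call that held in 2 of 8 fits with 1 array left out (lost without C before PH replicates 1, 2 and 4 and C after PH replicates 2, 3 and 4, adjusted p up to 0.122). Col18a1, the source of endostatin, had values of 4.95 to 7.59 and was called in no comparison.

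Lysyl oxidases crosslink secreted collagen. Before PH, Loxl2 measured -1.95, -0.85, -1.39 and -2.76 in C, -1.02, -1.43, -0.71 and -1.32 in C+Fc-GLP-1, -1.08, 0.03, -0.78 and -0.39 in MCD and -1.11, -1.38, -1.49 and -1.54 in M+Fc-GLP-1 mice. It was higher in MCD than C mice by 1.18 (standard error 0.43, adjusted p = 0.0431), with overlap, and its 3 probes gave differences from -0.02 to 1.18. After PH, Loxl2 measured 2.01, -0.48, -0.66 and 0.27 in C, 0.52, -0.34, -0.59 and -0.21 in C+Fc-GLP-1, -0.33, 0.52, -0.53 and -0.26 in MCD and -0.48, -0.86, -1.06 and 0.24 in M+Fc-GLP-1 mice. In the C group it rose across PH, by 2.02 (standard error 0.43, adjusted p = 0.00269), without overlap, and the call was kept with any 1 array left out. The 3 probes gave rises from 0.43 to 2.02, and the call was lost with only the groups compared in the fit. The diet call held in 3 of 8 fits with 1 array left out (lost without C replicates 1 and 4 and MCD replicates 2, 3 and 4, adjusted p up to 0.173). Loxl1 measured -0.74, -1.67, -1.42 and -2.05 in C, -2.19, -2.62, -1.60 and -1.52 in C+Fc-GLP-1, -1.37, -0.94, -1.99 and -1.27 in MCD and -1.57, -3.17, -2.50 and -3.05 in M+Fc-GLP-1 mice before PH. After PH, its values were -0.07, -1.20, -1.68 and 0.11 in C, -0.08, -0.73, -1.40 and -1.48 in C+Fc-GLP-1, -1.91, -1.49, -0.89 and -1.94 in MCD and -1.77, -1.63, -1.98 and 0.95 in M+Fc-GLP-1 mice. M+Fc-GLP-1 replicate 4 was far above its group, and neither Loxl1 nor Loxl3, which ranged from -3.89 to -1.40, was called in any comparison.

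Collagen prolyl 4-hydroxylases stabilise the helix. Before PH, P4ha1 measured -2.48, -1.35, -0.52 and -0.30 in C, -0.75, -0.06, -0.65 and -1.51 in C+Fc-GLP-1, -2.16, -1.54, -1.53 and -1.99 in MCD and -2.18, -2.20, -1.69 and -3.18 in M+Fc-GLP-1 mice. Under Fc-GLP-1 it was lower on the MCD diet, with a difference of -1.57 (standard error 0.39, adjusted p = 0.00803), without overlap. After PH, P4ha1 measured -1.48, -1.98, -0.88 and -1.12 in C, -1.12, 0.05, -0.86 and -1.07 in C+Fc-GLP-1, -2.03, -2.41, -2.48 and -1.74 in MCD and -2.76, -3.17, -3.35 and -2.65 in M+Fc-GLP-1 mice. The difference under Fc-GLP-1 was -2.24 (standard error 0.39, adjusted p = 1.89e-04), again without overlap, and both calls held with each array left out. The gene's other probe gave -1.35 before and -0.80 after PH. In untreated mice the same diet differences were -0.64 before PH (adjusted p = 0.225) and -0.80 after PH (adjusted p = 0.19). The interaction before PH was -0.93 (adjusted p = 0.301), so a difference between treated and untreated mice was not shown.

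The other hydroxylases differed less between groups, apart from a pair before PH. P4ha3 measured -0.77, -1.36, -2.22 and -1.58 in C, -1.50, -2.40, -1.83 and -1.78 in C+Fc-GLP-1, -3.59, -2.75, -2.53 and -2.23 in MCD and -2.40, -1.87, -1.67 and -1.89 in M+Fc-GLP-1 mice before PH. In MCD mice it was lower than in C mice, with a difference of -1.29 (standard error 0.31, adjusted p = 0.00268). After PH, it measured -2.63, -1.88, -1.95 and -1.79 in C, -2.16, -1.74, -2.05 and -1.34 in C+Fc-GLP-1, -2.61, -2.28, -1.63 and -2.48 in MCD and -1.63, -1.58, -1.96 and -2.28 in M+Fc-GLP-1 mice, and no other comparison called it. Plod3, a lysyl hydroxylase that also attaches sugars, measured 3.50, 2.86, 2.87 and 2.70 in C, 2.62, 3.34, 2.66 and 2.16 in C+Fc-GLP-1, 1.59, 2.07, 1.71 and 2.17 in MCD and 1.42, 2.39, 2.64 and 1.75 in M+Fc-GLP-1 mice before PH. Its difference between MCD and C mice was -1.10 (standard error 0.26, adjusted p = 0.00274), and like P4ha3 it did not overlap and held with each array left out. After PH, Plod3 measured 3.13, 2.96, 2.86 and 2.44 in C, 2.50, 2.77, 2.29 and 2.71 in C+Fc-GLP-1, 2.92, 2.29, 2.54 and 2.40 in MCD and 1.97, 2.07, 1.66 and 1.69 in M+Fc-GLP-1 mice. P4ha2 measured 0.54, 0.37, -0.25 and -0.27 in C, 0.58, -0.90, 0.37 and -0.11 in C+Fc-GLP-1, -0.21, 0.67, 0.18 and 0.77 in MCD and 0.57, 0.14, 1.12 and 0.16 in M+Fc-GLP-1 mice before PH. After PH its values were 0.99, 0.36, 0.40 and 0.30 in C, 0.72, 0.77, 0.40 and -0.65 in C+Fc-GLP-1, 0.32, -0.64, 0.14 and -0.08 in MCD and -0.24, -0.51, -0.12 and 0.83 in M+Fc-GLP-1 mice. No comparison called P4ha2 or Plod1, and Plod1 ranged from -0.996 to 1.30.

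Serpinh1, the collagen chaperone, was lower on the MCD diet in 3 of the 4 comparisons of the diets. Before PH, it measured -0.0048, 1.49, 2.01 and 1.28 in C, 1.79, 1.37, 0.90 and 0.85 in C+Fc-GLP-1, 0.86, 1.06, 1.35 and 0.92 in MCD and 0.17, -0.16, -0.14 and 0.50 in M+Fc-GLP-1 mice. M+Fc-GLP-1 mice differed from C+Fc-GLP-1 mice by -1.14 (standard error 0.36, adjusted p = 0.0403), while MCD and C mice differed by -0.15 (adjusted p = 0.791). After PH, Serpinh1 measured 2.09, 0.98, 0.56 and 1.80 in C, 2.54, 2.10, 1.48 and 2.22 in C+Fc-GLP-1, 0.35, -0.38, -0.34 and -0.40 in MCD and 0.20, 0.18, 0.59 and 1.32 in M+Fc-GLP-1 mice. The diet differences were -1.55 (standard error 0.36, adjusted p = 0.00468) without and -1.51 (standard error 0.36, adjusted p = 0.00514) with Fc-GLP-1, and in MCD mice the difference across PH was -1.24 (standard error 0.36, adjusted p = 0.0273). None of these 4 pairs of groups overlapped. The diet call under Fc-GLP-1 before PH held in 3 of 8 fits with 1 array left out (lost without C+Fc-GLP-1 replicates 1 and 2 and M+Fc-GLP-1 replicates 1, 2 and 3, adjusted p up to 0.117), and the fall across PH held in 3 of 8 fits with 1 array left out (lost without MCD before PH replicates 2 and 3 and MCD after PH replicates 2, 3 and 4, adjusted p up to 0.0832).

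Of the genes for trimming of propeptides, Pcolce enhances the C-proteinase Bmp1, and Adamts2 removes the amino end. Before PH, Pcolce measured 3.21, 2.62, 2.23 and 3.02 in C, 3.96, 2.62, 3.35 and 3.39 in C+Fc-GLP-1, 3.76, 3.76, 3.81 and 3.82 in MCD and 3.77, 2.77, 1.91 and 3.34 in M+Fc-GLP-1 mice. It was higher in MCD than C mice by 1.02 (standard error 0.35, adjusted p = 0.0318), without overlap. After PH, it measured 4.07, 3.86, 3.58 and 4.36 in C, 4.81, 4.12, 3.48 and 4.21 in C+Fc-GLP-1, 3.73, 3.93, 3.46 and 3.43 in MCD and 2.44, 2.28, 2.83 and 3.80 in M+Fc-GLP-1 mice. Across PH it rose in the C group, by 1.20 (standard error 0.35, adjusted p = 0.0222) and differed between M+Fc-GLP-1 and C+Fc-GLP-1 mice by -1.32 (standard error 0.35, adjusted p = 0.0117), where the groups overlapped. The diet call before PH held in 2 of 8 fits with 1 array left out (lost without C replicates 2 and 3 and MCD replicates 1, 2, 3 and 4, adjusted p up to 0.102), that after PH held in 6 of 8 fits with 1 array left out (lost without C+Fc-GLP-1 replicate 1 and M+Fc-GLP-1 replicate 2, adjusted p up to 0.0539), and the rise in C mice held in 5 of 8 fits with 1 array left out (lost without C before PH replicate 3 and C after PH replicates 1 and 4, adjusted p up to 0.0752).

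Adamts2 measured 0.54, 0.09, 0.0021 and 1.78 in C, 0.27, 0.79, 1.48 and 0.73 in C+Fc-GLP-1, 1.63, 1.85, 2.02 and 2.42 in MCD and 1.10, 1.18, 1.58 and 1.59 in M+Fc-GLP-1 mice before PH. The MCD mice were higher by 1.38 (standard error 0.40, adjusted p = 0.0116), a call that held with each array left out although the groups overlapped. After PH, Adamts2 measured 1.64, 0.90, 0.76 and 2.08 in C, 3.22, 1.83, 1.44 and 1.84 in C+Fc-GLP-1, 1.20, 1.16, 1.25 and 1.00 in MCD and 1.37, 0.68, 0.72 and 2.40 in M+Fc-GLP-1 mice, and no other comparison called it. Bmp1 was bright in every group, from 4.92 to 6.45, and was called in no comparison. With Col4a5, Col5a1, Col6a1, Col6a2, Col16a1, Col18a1, Loxl1, Loxl3, P4ha2 and Plod1, it made 11 tested genes without a call.

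**Figure D5:**
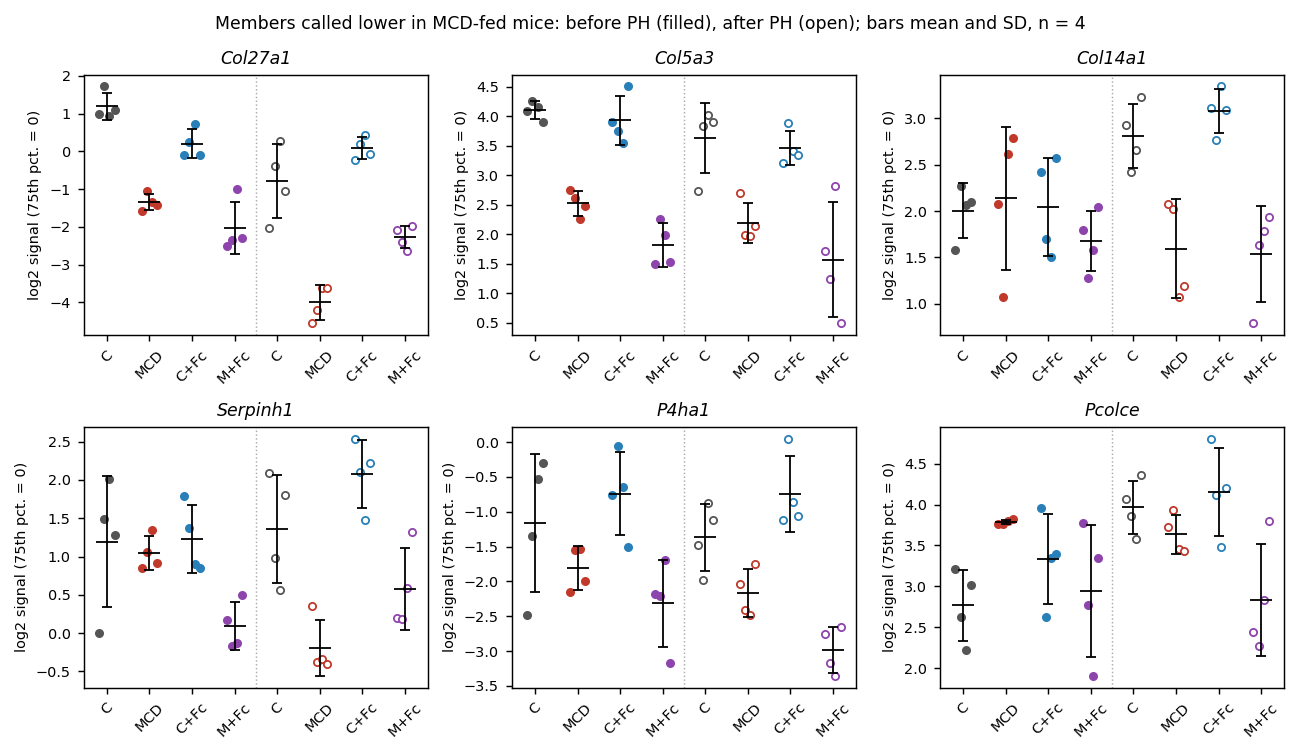
Log2 signal relative to the 75th percentile of the array for Col27a1, Col5a3, Col14a1, Serpinh1, P4ha1 and Pcolce in each of the 8 groups before and after PH; points are arrays and bars the mean with the SD of 4. Col27a1 and Col5a3 are lower on the MCD diet in all 4 comparisons, and Col14a1, Serpinh1 and P4ha1 mainly after PH or under Fc-GLP-1. Pcolce is called lower on the MCD diet under Fc-GLP-1 after PH, and higher in MCD than C mice before PH.

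Chains that are built into the same molecule were compared across the samples of a group. Deviations from the group means over the 32 arrays were compared for 3 such pairs, with 2-sided permutation tests adjusted over the 3. Col1a1 and Col1a2 had a Pearson r of 0.89 (p = 0.00016, adjusted 0.00024) and a Spearman rho of 0.70 (p = 0.00081, adjusted 0.00121), and r was 0.80 without the 2 arrays farthest from the median. Within the slides of 8 arrays r was -0.19, 0.61 and 0.95, and the value below 0 was on the slide of C and MCD mice before PH. The slide with 0.95 held C+Fc-GLP-1 replicate 1 and M+Fc-GLP-1 replicate 4 after PH, which were high in both chains. A value of r without all 3 high arrays after PH is not given. Col4a1 and Col4a2 had an r of 0.72 (permutation p = 5e-05, adjusted 0.00015) and a rho of 0.71 (p = 0.00016, adjusted 0.00048), with 0.68 without the 2 arrays and 0.64, 0.99 and 0.50 within slides. Col6a1 and Col6a2 had an r of 0.63 (permutation p = 0.00158, adjusted 0.00158) and a rho of 0.60 (p = 0.0027, adjusted 0.0027), with 0.62 without the 2 arrays and 0.66, 0.46 and 0.95 within slides. This last relation was not shown with the mean over the probes of a gene, where r was 0.35 (permutation p adjusted 0.105). The other 2 slides held 4 arrays each, too few for a value. All arrays of a pair share their RNA and its scaling.

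Genes around the collagens were followed as lists, and their counts in MCD against C mice before PH stand beside the 26.4% of all genes called there. Of 10 genes of collagen breakdown, 4 were called higher in MCD than C mice before PH: Timp1, an inhibitor of matrix proteases (3.60), the collagenase Mmp13 (2.11), the lysosomal Ctsk (1.44) and Timp2 (0.82), with 0 lower and a list median of 0.67. Of 16 other genes of collagen processing, Sparc (1.34), Adamts14 (1.16) and Fkbp14 (0.76) were higher and Mia3, needed for procollagen export, was lower (-0.84). Of 10 basement membrane partners, Nid1 (1.67), Lamb1 (0.84) and Lama1 (0.61) were higher and Nid2 (-1.01) lower. Of 8 fibril partners, Lum was higher (1.64) and Fmod lower (-1.02). Among genes around TGF beta signalling, Ccn2 (1.90) and Pdgfa (1.48) were higher. Ddr2, a collagen receptor, was the only call of 8 receptors (0.65), and Col20a1 the only one of 7 other collagen chains (-1.99).

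Loxl4, a further lysyl oxidase, was lower on the MCD diet under Fc-GLP-1, by log2 differences of -3.14 before and -3.93 after PH, and lower in MCD than C mice after PH (-2.78). Before PH the MCD and C groups differed by 0.29 (adjusted p = 0.682), and C+Fc-GLP-1 mice were above C mice by 2.60 (adjusted p = 0.00431). In C mice it was higher after than before PH (2.98), as was Sparc (2.10). Nid2 was lower on the MCD diet in all 4 comparisons of the diets, at -1.01 and -2.01 before PH and -1.60 and -1.76 after PH without and with Fc-GLP-1. Col20a1 was lower as well, at -1.99, -1.80, -1.40 and -1.64 in the same order. Collagen breakdown had 0 calls after PH between the diets, without or with Fc-GLP-1 (12.1% and 12.8% of all genes called).

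Markers of other cells moved in the same comparisons, and their part in the collagen differences was not tested. In MCD against C mice before PH, 5 of 7 macrophage markers were higher and 0 lower, with a median of 1.33, and summed macrophage signal was 74.9 to 197 in MCD against 39.9 to 72.1 in C mice. Of 10 stellate cell markers, Lrat (1.88) and Hand2 (1.03) were higher and 0 were lower, and the summed signal was 48.9 to 66.8 in MCD against 33.3 to 50.3 in C mice. Of 7 myofibroblast markers, Timp1 and Postn (0.97) were higher, and of 8 hepatocyte markers, 3 were lower. Single calls were Entpd2 of 5 portal fibroblast markers (1.26), Wt1 of 5 mesothelial markers (1.96) and Stab2 of 7 sinusoidal endothelial markers (0.92), all higher. Myh11 of 4 smooth muscle markers (-1.29) was lower. The uncalled mesothelial markers were Msln (-2.17), Krt19 (-1.45), Pdpn (-0.66) and Gpm6a (0.75), so that list had no common direction. Uncalled endothelial markers ranged from -0.77 (Kdr) to 1.11 (Lyve1), and uncalled portal fibroblast markers from -0.50 (Eln) to 0.72 (Cd34). In M+Fc-GLP-1 against MCD mice before PH, where Col3a1 was lower, 7.22% of all genes were called. There 3 of 7 macrophage markers and 2 of 10 stellate cell markers were lower and 0 higher. The summed macrophage signal was 35.4 to 81.8 in these M+Fc-GLP-1 mice, and the summed stellate cell signal 36.3 to 52.2. In C mice across PH (14% of all genes called), 7 of 7 macrophage markers were higher (median 2.03) and 2 of 8 hepatocyte markers lower. Of 10 stellate cell markers 0 were called, and the summed macrophage signal after PH was 96.1 to 429. Timp1 (3.78) and the portal fibroblast marker Fbln2 (1.56) were higher there too. In M+Fc-GLP-1 mice across PH (1.71% of all genes called), Msln (5.35) and Pdpn (3.24) of 5 mesothelial markers were higher. The others of that list, Gpm6a, Wt1 and Krt19, were not called. Also higher were Fbln2 (1.49) of 5 portal fibroblast markers, Postn (1.18) of 7 myofibroblast markers and Marco (2.59) of 7 macrophage markers. Stab2 of 7 sinusoidal endothelial markers was lower (-1.08). In MCD against C mice after PH, 12.1% of all genes were called. There Acta2 (-2.18) and Myl9 (-1.40) of the 7 myofibroblast markers were lower, as was Ngfr (-0.998), the only call of 10 stellate cell markers. Fbln2 (-1.28) and the smooth muscle marker Myh11 (-1.71) were lower in the same comparison. No defining marker set was at background: all 10 stellate cell, 7 macrophage, 7 myofibroblast and 8 hepatocyte markers were tested.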

How the data were processed

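RNA of 32 liver samples was hybridised to 1-colour Agilent oligonucleotide arrays, 4 in each of 8 groups named from the labels. The authors deposited the scanner intensity of each spot (Feature Extraction 10.7.3.1, background corrected within the array) and a table of normalized log2 values, which had been normalized separately before and after PH and was used within those sets only as an alternative.

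The log2 intensity was set relative to the 75th percentile of the 59305 spots that are not controls. Outlier spots, as marked by the scanner software, were removed, and with them 426 of 55681 probes. A probe entered the test if some group had it well above background on each of its 4 arrays (28937 probes), with 1 probe, the brightest, for each of 21073 genes. limma 3.58.1 (R 4.3.3) was fitted to the 8 groups together, with p-values adjusted over all genes by Benjamini and Hochberg at a threshold of 0.05. Where every array of a group had a probe at background, a fold is given as "at least" against that group's background, from the higher of the dim probe's signal and the lowest signal above background on each array. With 4 arrays per group, their number limits the precision. P-values measure the spread between these samples.

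On simulated data for MCD against C before PH over 21073 genes, 25% of log2 changes of 1 and 88% of changes of 2 were recovered, and 7 of 20873 unchanged genes were called. The simulation changed 100 genes by each size, where 5571 genes were called in the data. Adjustment for multiple testing is stricter with fewer changed genes, so these shares are not the recovery in that comparison. Promoters came from RefSeq on GRCm38.p6. Correlations of chain pairs used 100000 permutations in Python 3.11.15 with scipy 1.17.1. Values on every array are given for a fixed set of genes (the type I, III and IV a1 and a2 chains, Col6a3, Col14a1, Loxl1, Loxl2, P4ha1, P4ha2, Serpinh1 and Pcolce) and for each other gene called within a slide, and called genes are named for each comparison, up to 10 with the largest differences; in MCD against C mice before PH all 13 are named. Genes outside the list come from the pathway and marker lists. A gene of the TGF beta list is not reported here. The genes, lists and tests were chosen with earlier results of these data known. The interaction of diet and time in untreated mice, and leaving out 3 arrays with high cholangiocyte markers, were chosen after seeing the data. Alternatives were normexp (offset 50) with quantile normalization, centring on the median, the percentile over probes detected on every array, the deposited table, keeping dim probes, averaging the probes of a gene, only the groups compared, a replicate block and leaving out each array.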

Additional observations from a re-analysis of the deposited data

Results flagged for a closer look

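In groups of 4 arrays, 9 of 160 sets of values of the named genes held an array whose gap to the nearest other array exceeded the critical share of the range set for 4 values by Dixon's test at the 95% level, where chance gives about 1 in 20. High values were Col1a2 in C+Fc-GLP-1 replicate 1 after PH (5.27), Col6a3 in the same array (2.81), Loxl1 in M+Fc-GLP-1 replicate 4 after PH (0.95), P4ha2 in C replicate 1 after PH (0.99), Col6a3 in MCD replicate 2 after PH (0.69), Serpinh1 in MCD replicate 1 after PH (0.35), Col4a1 in C replicate 3 before PH (0.83) and Col27a1 in M+Fc-GLP-1 replicate 3 before PH (-1.005). The low value was Col5a3 in C replicate 1 after PH (2.74). Of these 9, 5 lay on the 3 arrays after PH with the highest summed cholangiocyte markers (mostly Spp1), and the part of those cells in the values was not tested.

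Effects that differed between groups by a test of the difference were Col3a1 for Fc-GLP-1 between the diets before PH (-2.41), and, for the change across PH between the diets in untreated mice, Col1a1 (-3.21), Col1a2 (-2.46) and Col3a1 (-3.07). In the latter, slide and group cannot be told apart.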

How the results depend on the processing

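Of 54 called changes of the 31 genes, 18 kept their direction and stayed past the threshold under every alternative run for them, and 0 changed direction. Leaving out 1 array lost 23 at least once. With normexp and quantile normalization, the number of genes called was 7 in MCD against C before PH, 4 in C+Fc-GLP-1 against C before PH, 3 in M+Fc-GLP-1 against MCD before PH, 2 in M+Fc-GLP-1 against C+Fc-GLP-1 before PH, 0 in M+Fc-GLP-1 against MCD after PH, 3 in C+Fc-GLP-1 mice across PH and 0 for the diet by Fc-GLP-1 interaction. With centring on the median it was 1 in C+Fc-GLP-1 against C before PH, 2 in M+Fc-GLP-1 against MCD before PH, 0 in C+Fc-GLP-1 mice across PH and 7 for that interaction. With the deposited values it was 4, 10 and 3 in C+Fc-GLP-1 against C, M+Fc-GLP-1 against MCD and M+Fc-GLP-1 against C+Fc-GLP-1 before PH, 3 in MCD against C and 0 in M+Fc-GLP-1 against MCD after PH, and 4 for the interaction. With the percentile over probes detected on every array it was 3 in M+Fc-GLP-1 against C+Fc-GLP-1 before PH. Without the filter it was 6 in M+Fc-GLP-1 against MCD and 3 in M+Fc-GLP-1 against C+Fc-GLP-1 before PH. With the mean over probes it was 2 in M+Fc-GLP-1 against MCD before PH, and the correlation of Col6a1 with Col6a2 was 0.35. With only the groups compared in the fit it was 5 in M+Fc-GLP-1 against MCD before PH, 0 in treated mice of either diet and 4 in C mice across PH, and 4 for the interaction. The cause of these shifts was not tested.

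In no comparison was the correlation of deviations over 0.1 in all 4 same-numbered pairs (the lowest pair of a comparison had -0.189 to 0.0607), so the samples were taken to share only a number. With the replicate block, 2 genes were called in M+Fc-GLP-1 against MCD before PH and 2 for the diet by Fc-GLP-1 interaction, and no other count moved by over 1.5 times.

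With 1 array left out in turn, the lowest and highest counts before PH were 7 and 10 in MCD against C, 0 and 0 in C+Fc-GLP-1 against C, 1 and 4 in M+Fc-GLP-1 against MCD, and 3 and 4 in M+Fc-GLP-1 against C+Fc-GLP-1. After PH they were 4 and 7, 0 and 0, 2 and 5, and 5 and 9 in the same order. Across PH they were 6 and 11 in C, 0 and 1 in C+Fc-GLP-1, 1 and 4 in MCD and 2 and 3 in M+Fc-GLP-1 mice. They were 0 and 2 for the diet by Fc-GLP-1 interaction, 0 and 0 for diet by time under Fc-GLP-1, and 2 and 5 for diet by time in untreated mice. Signal near background leaves Col12a1 and Col13a1 with bounds, and 9 genes without a test.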
